A study of Rattus norvegicus with 30 samples.

Results

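Gene expression was compared between whole rat testes collected at 36.5 and at 53.5 days post-partum (dpp), the interval in which the first wave of spermatogenesis comes to its end in the intact organ. The comparison rests on 6 libraries of the 30 in the series, 3 from testes of 36.5 dpp and 3 from testes of 53.5 dpp. All were uncultured testes of Wistar Han rats, without treatment or genetic change, and the 3 libraries of an age came from 3 different testes. The titles of the samples write "dpc" where the age label gives the postnatal day, and the age label was followed. The other libraries cover younger testes (8.5, 14.5, 24.5 and 30.5 dpp) and explants taken at 8.5 dpp and cultured for up to 28 days (D28). One library of 14.5 dpp, named an outlier in its title and at 0 for all genes, was left out, so medians at that age rest on 2 libraries. The other libraries are used here only to place the genes that differ between the 2 oldest ages.

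During the first wave, germ cells that began to divide shortly after birth advance together through meiosis and become round and then elongating spermatids. An elongating spermatid replaces its histones first with transition proteins and then with protamines, builds an acrosome over the nucleus, and lays outer dense fibres, a fibrous sheath and a mitochondrial sheath around the axoneme of the tail. Because transcription stops as the nucleus condenses, the mRNAs for these late proteins are made in round spermatids and stored. Around the tubules, Leydig cells pass from immature to adult forms and make testosterone, and Sertoli cells have already stopped dividing.

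Between 36.5 and 53.5 dpp the testis gained the transcripts of the last steps of sperm formation. The transition protein and protamine genes Tnp1, Tnp2, Prm1 and Prm2 rose, as did the tail genes Odf1, Oaz3, Smcp, Spem1 and Akap4. Genes of the acrosome and of the axoneme, already abundant at 36.5 dpp, were mostly not called, though 20 of 22 acrosome genes lay above the median change of all genes. In the opposite direction, 13 of 18 extracellular matrix genes tested were called lower, among them the collagens Col3a1 and Col1a1, along with the cyclin gene Ccnd2. Of 19 steroidogenic genes tested, Hsd3b1, Cyp17a1 and Srd5a1 were called lower and Hsd11b1 higher. That balance depended on how the libraries were scaled, and the call of Cyp17a1 did not hold under every scaling. In a whole testis, a change in the number of cells of a type and a change in the RNA of each cell cannot be told apart.

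Values are deposited in FPKM, in which read fragments are scaled both to transcript length and to the size of the library, and levels were compared as log2(FPKM + 1). Summed FPKM ran from 328414 to 337222 at 36.5 dpp and from 366032 to 380335 at 53.5 dpp, and from 13007 to 13563 genes were above 0. At 36.5 dpp between 4.81% and 5.28% of this sum lay in the 10 most abundant genes, and at 53.5 dpp between 10.5% and 11.9%. Across the genes tested, replicates of an age had Pearson correlations from 0.977 to 0.985, and libraries of different ages from 0.953 to 0.964. Genes are not independent replicates, and no test was made of these correlations. Read counts were not used here, but the spacing of low values gave relative depths of 0.644 to 1.11 times that of 36.5 dpp replicate 1. Of 10 markers of the epididymis, a tissue that could be dissected with the testis, 7 are listed at 0 in all 6 libraries, and Aqp9 alone passed the filter on low values. A listed 0 need not mean absence, since Col1a2, Hba-a2 and Hbb-b1 are also listed at 0 in all 6.

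Of 11033 genes tested, 318 were called higher at 53.5 dpp (2.88% of those tested) and 549 were called lower (4.98%). Genes were called where the limma adjusted p was 0.05 or less and the medians of the ages differed by a factor of 2 or more. The median log2 fold change of all genes tested was -0.30, so a typical gene stood slightly lower at 53.5 dpp, and changes of gene groups are given below beside this shift. The balance of higher against lower calls depended on how the libraries were scaled. With quantile normalization it was 477 higher against 76 lower, with each library centred on its median 732 against 48, and with each library rescaled to an equal summed FPKM 293 against 1328. The genes called higher took 5.63% to 7.17% of the summed FPKM of a library at 36.5 dpp and 17.9% to 21.0% at 53.5 dpp. Their part in the shift of the other genes was not tested.

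The 2 sets of calls sat at different levels of expression. Genes called higher had a median level of 35.1 FPKM at 53.5 dpp, and 102 of the 318 stood at 100 FPKM or more. Genes called lower had a median of 2.28 FPKM at 36.5 dpp, and only 2 of the 549 reached 100 FPKM, against a median of 8.15 FPKM for all genes tested. In 310 of the genes called higher all 3 libraries of 53.5 dpp lay above all 3 of 36.5 dpp, and in 530 of the genes called lower they all lay below. The rule of the calls selects for such separation, so these counts describe the calls and lend them no further support. A ratio of medians of at least 4 was reached by 65 of the genes called higher and 61 of those called lower.

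**Figure D1:**
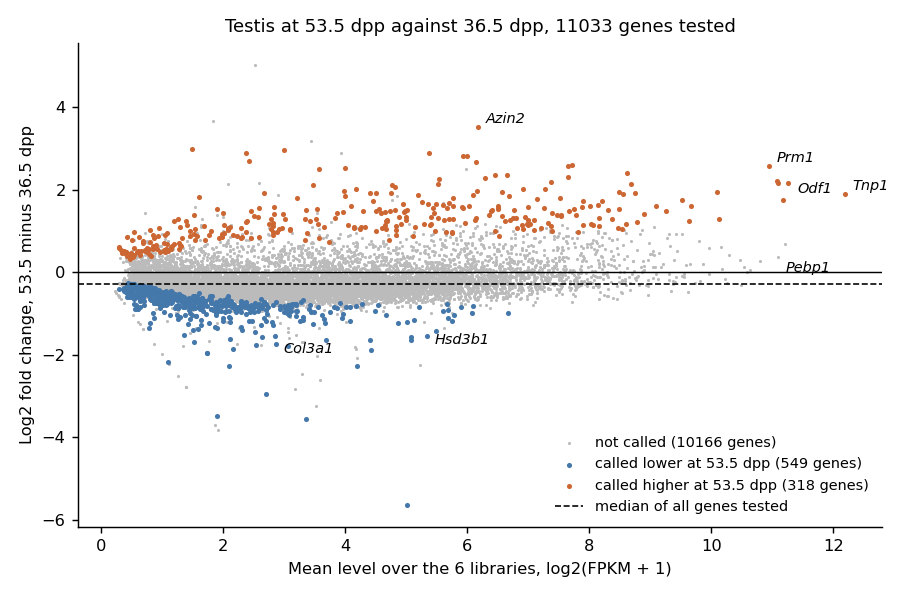
Log2 fold change (53.5 minus 36.5 dpp) of each of the 11033 genes tested, against its mean level over the 6 libraries on the log2(FPKM + 1) scale. The 318 genes called higher (orange) reach the highest levels, the 549 called lower (blue) lie mostly at low levels, and the dashed line marks the median of all genes tested, -0.30.

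Sperm chromatin. This group holds the proteins that replace histones in the spermatid nucleus and some of their partners. Of its 13 genes tested, 6 were called higher and 0 lower, and the median log2 fold change was 1.01, against -0.30 for all genes tested. It stayed above 0 under all 3 scalings of the libraries, between 0.67 and 1.34, with 4 to 8 genes called higher. Prm1, which encodes protamine 1, went from 958, 999 and 555 FPKM at 36.5 dpp to 5511, 5260 and 3872 FPKM at 53.5 dpp. The lowest library of 53.5 dpp lay far above the highest of 36.5 dpp, and the log2 fold change was 2.57 (standard error 0.25, limma adjusted p = 0.00196). Prm2, the second protamine, rose from 232, 226 and 201 FPKM to 974, 1101 and 536 FPKM, with the third library of 53.5 dpp again the lowest. Prm3, a small acidic protein encoded in the same gene cluster, rose less, from 229, 186 and 138 FPKM to 472, 507 and 390 FPKM.

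Tnp1 and Tnp2 encode the transition proteins, which occupy the DNA between histone loss and protamine deposition. Tnp1 was the most abundant gene of the 53.5 dpp testis, at 9491, 11143 and 6990 FPKM, after 2713, 2879 and 1855 FPKM at 36.5 dpp (log2 fold change 1.89, standard error 0.23, limma adjusted p = 0.00354). Tnp2 went from 1485, 1317 and 1008 FPKM to 4665, 5010 and 3273 FPKM (log2 fold change 1.76). For both, all libraries of one age lay apart from those of the other, but quantile normalization, which sets the highest values of all libraries equal, and the fit of all 6 ages ended both calls. Tssk6, a spermatid serine kinase needed for nuclear condensation, rose from 91.4, 96.4 and 68.2 FPKM to 528, 531 and 486 FPKM, the largest change of the group (log2 fold change 2.59). The linker histone genes of the group were not called: H1f7 had a log2 fold change of 1.01 and a ratio of medians of 1.82, and Hils1 had 0.60. Brdt, a bromodomain reader of acetylated histones, was at 142 to 169 FPKM at 36.5 dpp and 153 to 174 FPKM at 53.5 dpp, and these ranges overlap.

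Tail sheaths. The outer dense fibres, fibrous sheath and mitochondrial sheath are the accessory structures around the axoneme. Of 21 genes tested, 10 were called higher and 0 lower, with a median log2 fold change of 0.93 (0.67 to 1.26 under the 3 scalings, with 10 to 13 called higher). All 21 had a fold change above the median of all genes. Odf1, a main protein of the outer dense fibres, stood at 1330, 1171 and 986 FPKM at 36.5 dpp and at 5128, 5152 and 5262 FPKM at 53.5 dpp (log2 fold change 2.17, standard error 0.12, limma adjusted p = 0.000398). Smcp, of the mitochondrial sheath, rose from 1212, 1006 and 886 FPKM to 4557, 4425 and 4823 FPKM, and Oaz3, the testis antizyme that restrains polyamine synthesis and also resides in the tail, rose from 1097, 1072 and 864 FPKM to 4555, 4795 and 4618 FPKM. These 3 genes agreed closely among the testes of 53.5 dpp, unlike the protamine and transition protein genes.

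Akap4, the major scaffold of the fibrous sheath, rose from 383, 366 and 342 FPKM to 1116, 1093 and 880 FPKM (log2 fold change 1.49). Spem1, needed to strip the cytoplasm from the late spermatid, rose from 82.6, 87.7 and 62.2 FPKM to 379, 359 and 323 FPKM. Spata18, Spata3, Cabs1, Ropn1 and Fscb were also called higher, with log2 fold changes between 1.15 and 2.56. Of the members not called, Gpx4, the selenoenzyme that hardens the mitochondrial capsule, stood at 621 to 775 FPKM at 36.5 dpp and 1028 to 1280 FPKM at 53.5 dpp, apart between ages but with a log2 fold change of 0.75. Odf2, Ropn1l, Tsga10, Akap14 and Odf4 overlapped between the ages. Odf2, like Odf1 a protein of the outer dense fibres, had a log2 fold change of 0.30, and the difference between the 2 genes was not tested.

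**Figure D2:**
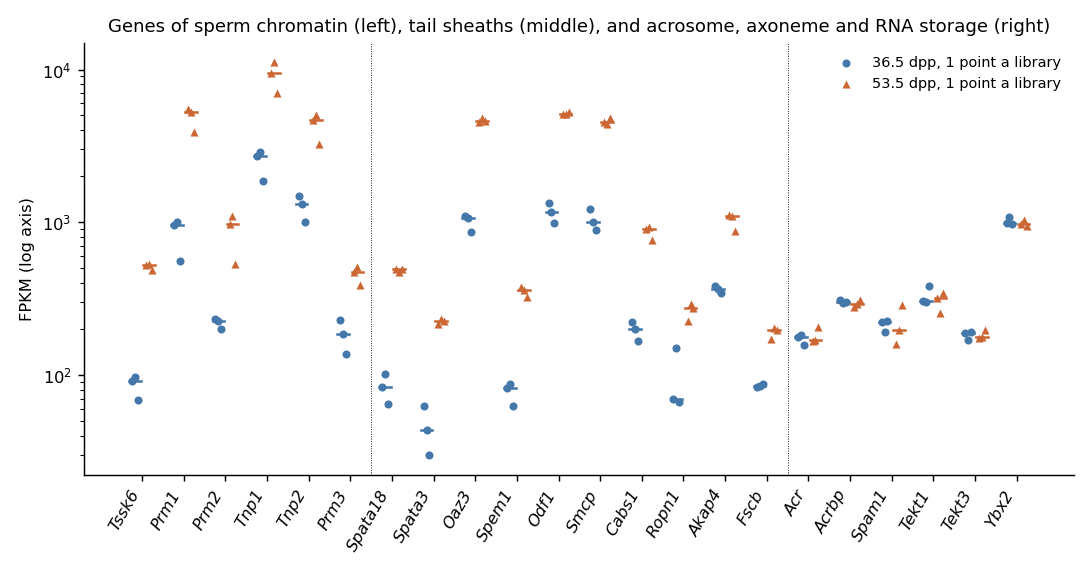
FPKM on a log axis in each of the 3 libraries of 36.5 dpp (circles) and 53.5 dpp (triangles), with a bar at the group median, for the called genes of sperm chromatin (left of the first dotted line) and of the tail sheaths (middle), and for 6 genes of the acrosome, axoneme and RNA storage (right). The left and middle genes lie apart between the ages, while Acr, Acrbp, Spam1, Tekt1, Tekt3 and Ybx2 overlap.

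Promoter sequence was available for several of these genes in RefSeq (assembly GRCr8, not the rn6 build to which the reads were aligned). The 120 bases before the annotated start are printed for 6 called genes of chromatin, tail and energy metabolism because each holds a match to TGACNTCA, on either strand, in this stretch. TGACGTCA, one form of it, is the palindromic cAMP response element, which binds CREB and the spermatid activator CREM. Capitals mark the matches.
Tnp1: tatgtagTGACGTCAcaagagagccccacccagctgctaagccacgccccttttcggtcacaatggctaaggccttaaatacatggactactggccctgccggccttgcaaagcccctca
Prm1: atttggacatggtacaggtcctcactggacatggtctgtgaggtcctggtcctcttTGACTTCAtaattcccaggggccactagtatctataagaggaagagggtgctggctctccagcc
Smcp: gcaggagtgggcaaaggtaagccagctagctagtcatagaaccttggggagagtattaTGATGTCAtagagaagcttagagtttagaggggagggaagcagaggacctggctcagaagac
Oaz3: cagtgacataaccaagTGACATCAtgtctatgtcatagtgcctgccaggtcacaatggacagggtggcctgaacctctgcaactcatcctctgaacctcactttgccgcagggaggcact
Akap4: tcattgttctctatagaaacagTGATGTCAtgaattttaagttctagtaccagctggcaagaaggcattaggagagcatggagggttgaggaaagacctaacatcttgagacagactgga
Gapdhs: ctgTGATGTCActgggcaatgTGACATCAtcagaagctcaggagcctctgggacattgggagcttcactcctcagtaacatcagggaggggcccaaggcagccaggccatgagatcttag
The stretches lie at chr9:82044279-82044398 on the minus strand (Tnp1), chr10:5378620-5378739 on the plus strand (Prm1), chr2:180861565-180861684 on the minus strand (Smcp), chr2:184765177-184765296 on the minus strand (Oaz3), chrX:18117550-18117669 on the minus strand (Akap4) and chr1:95121056-95121175 on the minus strand (Gapdhs). The match begins 113 bases before the start in Tnp1, 64 in Prm1, 62 in Smcp, 104 in Oaz3 and 98 in Akap4, and in Gapdhs matches begin 117 and 99 bases before it.

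Over the window from 250 bases before to 50 after the first start listed for each gene, TGACNTCA was found in 49 of the 263 genes called higher that have a promoter in the table (18.6%). The share was 4.75% of the 421 genes called lower with a promoter, 8.01% of the 9064 genes tested with one and 10.0% of all 27457 promoters in the table. In the tail sheath group it was 8 of 19. The exact element TGACGTCA, which is a part of these matches, was in 3.42% of genes called higher and 3.30% of genes tested. The TATA letters TATAAA were in 6.46% of genes called higher and 7.17% of genes tested. A match describes the letters of the window and is not a site of binding.

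Acrosome and egg binding. The acrosome is the secretory vesicle that opens at fertilisation. Of 22 genes tested, 1 was called higher (4.55%, against 2.88% of all genes) and 0 lower. The median log2 fold change was 0.16, above the -0.30 of all genes, and 20 of the 22 genes lay above -0.30. With libraries rescaled to an equal summed FPKM the group median fell to -0.00338, beside -0.47 for all genes. The called gene was Actl9, an actin-like protein of the perinuclear theca, at 154, 150 and 107 FPKM at 36.5 dpp and 348, 401 and 313 FPKM at 53.5 dpp. Actl7a was also apart, from 236 to 308 FPKM and then from 492 to 569 FPKM, at a ratio of medians of 1.89. It was called higher with median centring. Adam2 lay apart the other way, with a log2 fold change of -0.62. Acr, the protease acrosin, stood at 177, 182 and 158 FPKM and then at 168, 169 and 205 FPKM. Acrbp, its binding partner, stood at 298 to 308 FPKM and at 278 to 309 FPKM, and Spam1, the sperm hyaluronidase, at 191 to 226 FPKM and at 159 to 289 FPKM. Izumo1, required for fusion with the egg, overlapped as well (47.0 to 55.9 FPKM and 41.5 to 71.7 FPKM). In the step before, from 30.5 to 36.5 dpp, 13 of the same 22 genes were called higher (6.33% of 11227 genes tested were) and the median log2 fold change was 1.29. The 2 steps share the 36.5 dpp testes.

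Axoneme and motility. Of 15 axoneme genes tested 0 were called in either direction, at an all-gene background of 2.88% higher and 4.98% lower, and their median log2 fold change of -0.29 turned to 0.04 when libraries were centred on their median. Tekt1, a tektin of the doublet microtubules, stood at 304, 302 and 384 FPKM at 36.5 dpp and at 318, 254 and 345 FPKM at 53.5 dpp. Drc1, Dnai1 and Dnai2, of the regulatory complex and the dynein arms, reached an adjusted p of at most 0.05 with log2 fold changes from -0.44 to -0.39, but their ratios of medians were under 2. Of 17 genes of sperm signalling and ion transport, only Tssk3, a testis-specific kinase, was called: it rose from 117, 120 and 108 FPKM to 285, 322 and 289 FPKM. Tssk2 was apart between the ages too, with a log2 fold change of 1.03 and a ratio of medians of 1.93. The calcium channel genes Catsper2, Catsper3, Catsperd and Catsperg were not called, with log2 fold changes from -0.45 to -0.08.

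For energy metabolism, spermatozoa use germ cell forms of the glycolytic enzymes, held on the fibrous sheath. Gapdhs, the sperm glyceraldehyde-3-phosphate dehydrogenase, stood at 122, 188 and 86.5 FPKM at 36.5 dpp and at 340, 363 and 385 FPKM at 53.5 dpp, and Acsbg2, an acyl-CoA synthetase, at 114, 109 and 103 FPKM and at 305, 272 and 277 FPKM. These were the 2 called of 12 (16.7%, where 2.88% of all genes were called higher). Pgk2, the germ cell phosphoglycerate kinase, had all 53.5 dpp libraries higher (975 to 1073 FPKM against 522 to 553 FPKM) at a ratio of medians of 1.85. Ldhc, the germ cell lactate dehydrogenase, overlapped between the ages, as did Gk2, Cox6b2 and Ldhal6b.

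Regulators and RNA storage. Of 18 genes of spermatid transcription and RNA storage, 2 were called higher (11.1%, against 2.88% of all genes) and 0 lower. Sox5 rose from 65.1, 62.6 and 60.4 FPKM to 154, 170 and 129 FPKM. Fhl5, the spermatid coactivator of CREM known as ACT, was at 18.8, 18.4 and 16.2 FPKM at 36.5 dpp and at 31.8, 40.8 and 101 FPKM at 53.5 dpp, with 1 library far above the others. Its call was lost without that library, without any single library of 36.5 dpp and with rescaling to an equal sum. Crem itself scattered within each age, at 13.8, 1.29 and 12.1 FPKM and at 8.15, 15.3 and 0.754 FPKM, so a change was not detectable. Ybx2, which binds stored mRNAs, stood at 971 to 1084 FPKM and at 942 to 1035 FPKM. Taf7l, Piwil2, Cnot7 and Piwil1 had log2 fold changes from -0.71 to -0.56 with libraries apart, and none was called because the ratios of medians were under 2. The median of this group, -0.26, turned to 0.07 with libraries centred on their median.

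Ubiquitin and proteasome genes of the spermatid were called higher in 2 of 21 cases (9.52%, against 2.88% of all genes). They were called lower in 1 (4.76%, against 4.98%). The group median log2 fold change was 0.30, and 19 of the 21 lay above the median of all genes. Quantile normalization gave 4 higher and 0 lower, and median centring 9 higher and 0 lower. Ubqlnl, a ubiquilin-like gene, rose from 102, 97.0 and 72.2 FPKM to 524, 445 and 383 FPKM, and Rnf133, a testis ubiquitin ligase of the endoplasmic reticulum, from 173, 162 and 143 FPKM to 488, 527 and 470 FPKM. Usp26, an X-linked deubiquitinase of spermatogonia and spermatocytes, was called lower (11.8, 8.01 and 12.4 FPKM, then 4.37, 4.32 and 6.00 FPKM), a call that ended under quantile normalization and median centring.

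The 15 largest rises among genes of at least 5 FPKM were, by log2 fold change, Azin2, Cd46, Klk1c9, Pde1a, Pim1, Phospho1, Serpina1, Neurl1, Garin1a, Tssk6, Prm1, Spata18, Cldn3, Hp and MGC93861. Azin2, an inhibitor of antizymes and so a partner of the Oaz3 system, had the largest: it stood at 24.7, 21.4 and 16.2 FPKM at 36.5 dpp and at 268, 239 and 229 FPKM at 53.5 dpp (log2 fold change 3.52, standard error 0.16, limma adjusted p = 0.000382). Its median was 6.12 FPKM at 8.5 dpp and 0.989 FPKM at 30.5 dpp, the lowest median of the 6 ages. The libraries of 30.5 dpp disagreed, at 0.746, 6.85 and 0.989 FPKM. The second of them lay above every library of 8.5, 14.5 and 24.5 dpp. Phospho1, a phosphatase of phosphocholine and phosphoethanolamine, rose from 24.0, 24.6 and 17.7 FPKM to 174, 161 and 150 FPKM. Pim1, a serine kinase, rose from 13.3, 16.9 and 12.9 FPKM to 116, 128 and 93.3 FPKM. Pde1a, a calmodulin-dependent phosphodiesterase of cyclic nucleotides, rose from 0.865, 0.915 and 0.912 FPKM to 12.4, 12.0 and 15.2 FPKM. None of these had overlapping ages.

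Cd46, the complement regulator that rodents express mainly on the acrosome of sperm, is listed at 0 in all 3 libraries of 36.5 dpp and stood at 5.27, 8.19 and 7.42 FPKM at 53.5 dpp. Its median is also listed at 0 at every younger age and at D28, and no fold is given. Serpina1, an inhibitor of serine proteases best known from the liver, rose from 24.8, 30.4 and 16.5 FPKM to 162, 158 and 186 FPKM, and Klk1c9, a kallikrein of a family of close paralogs whose reads are hard to assign, rose from 2.21, 1.42 and 2.01 FPKM to 15.3, 21.7 and 28.5 FPKM. Hp, haptoglobin, which binds free haemoglobin, stood at 5.57, 3.50 and 3.27 FPKM and then at 22.2, 22.4 and 40.9 FPKM. Cldn3, a claudin of tight junctions, rose from 5.97, 6.44 and 4.70 FPKM to 43.9, 42.8 and 27.2 FPKM. Every named rise in this and the previous paragraph held its call under quantile normalization, median centring and rescaling to an equal sum.

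Cldn3 was the only 1 of 17 genes of the blood-testis barrier to be called (5.88%, where 2.88% of all genes were called higher). Cldn11, the main claudin of the Sertoli cell barrier, stood at 65.9, 57.4 and 48.7 FPKM at 36.5 dpp and at 49.6, 42.1 and 43.3 FPKM at 53.5 dpp, and the ages overlapped. Gja1, the connexin of the tubule, had a log2 fold change of -0.48 and Ocln, occludin, one of -0.37, against -0.30 for all genes. Lipe, the hormone-sensitive lipase, was likewise the only gene called higher of 20 for cholesterol synthesis and uptake, from 20.9, 23.7 and 16.9 FPKM to 120, 107 and 81.0 FPKM.

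**Figure D3:**
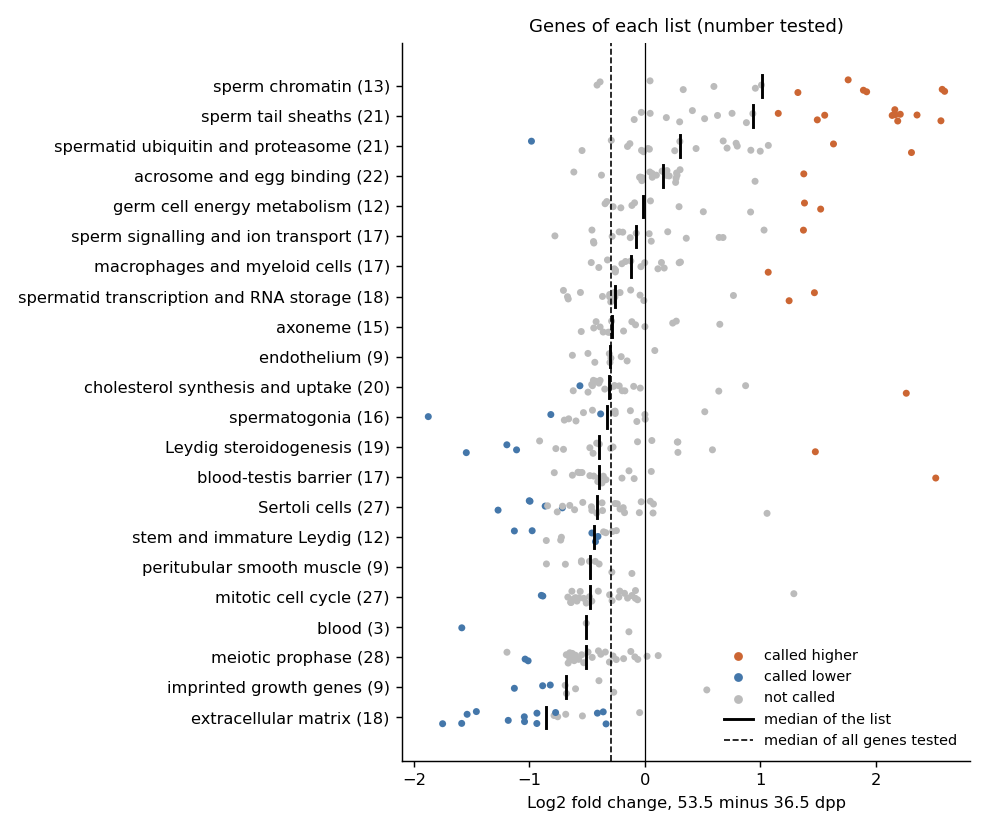
Log2 fold change (53.5 minus 36.5 dpp) of the genes tested in each group, 1 point a gene, with the number tested in brackets and a black bar at the median of the group. Sperm chromatin and tail sheaths lie to the right with medians of 1.01 and 0.93, extracellular matrix lies furthest to the left with a median of -0.86, and the dashed line marks the median of all genes tested, -0.30.

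Meiotic and mitotic germ cells. Of 28 genes of meiotic prophase tested, 26 had a log2 fold change below 0, where 79.5% of all genes tested did. In 20 it lay below the median of all genes, and the group median was -0.51. Only Msh5 and Syce2 were called lower (7.14% of the group, against 4.98% of all genes) and 0 were called higher. Msh5, of the crossover machinery, stood at 2.23, 2.98 and 2.95 FPKM at 36.5 dpp and at 0.621, 0.725 and 1.10 FPKM at 53.5 dpp. Sycp3, of the synaptonemal complex axis, stood at 160, 170 and 195 FPKM and at 117, 131 and 93.2 FPKM (log2 fold change -0.63), apart between the ages with a ratio of medians under 2. Hspa2, the heat shock protein of spermatocytes, had a log2 fold change of -0.31, close to that of all genes.

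Among 27 mitotic genes, Ccna2 and Mcm2 were called lower (7.41%, against 4.98% of all genes) and the median log2 fold change was -0.48. Mki67 and Pcna overlapped between the ages, at 31.8 to 37.4 FPKM and 29.3 to 34.4 FPKM for Mki67. Among 16 genes of spermatogonia, 3 were called lower (18.75%, against 4.98% of all genes). Ccnd2, the D-type cyclin of dividing spermatogonia, had the largest fall of any gene in these groups, from 6.97, 8.57 and 7.29 FPKM to 1.48, 1.29 and 1.25 FPKM (log2 fold change -1.88, standard error 0.10, limma adjusted p = 0.000387). Its median had been 245 FPKM at 8.5 dpp. Kit, the receptor of differentiating spermatogonia, fell from 4.31, 3.08 and 2.51 FPKM to 1.39, 1.3 and 1.55 FPKM, and Zbtb16, a factor of the stem cell pool, from 0.957, 0.926 and 0.521 FPKM to 0.492, 0.281 and 0.352 FPKM. Gfra1, the GDNF receptor of the stem cells, was higher in each 53.5 dpp testis (2.68, 3.52 and 2.11 FPKM against 1.79, 1.90 and 1.17 FPKM) but its ratio of medians was under 2, and of the 3 scalings quantile normalization and median centring called it higher. Uchl1 stood at 34.2 to 36.9 FPKM and at 34.7 to 38.3 FPKM. The calls of Kit, Zbtb16, Ccna2 and Syce2 ended under quantile normalization and median centring, and those of Ccnd2, Mcm2 and Msh5 held under the 3 scalings. Syce2 and Zbtb16 also lost theirs when 1 of 5 single libraries was left out, among them replicates 1 and 2 of both ages.

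Extracellular matrix. These genes are made mainly by the cells around the tubules and between them. Of 18 tested, 13 were called lower (72.2%, against 4.98% of all genes) and 0 higher. Their median log2 fold change was -0.86. The number called was 8 under quantile normalization, 6 with median centring and 14 with rescaling to an equal sum, and the median stayed below 0 in each. Col3a1 stood at 13.2, 14.5 and 10.0 FPKM at 36.5 dpp and at 2.72, 2.11 and 4.49 FPKM at 53.5 dpp (log2 fold change -1.75, standard error 0.23, limma adjusted p = 0.00427). Col1a1 fell from 12.1, 11 and 6.86 FPKM to 2.5, 2.01 and 3.33 FPKM, Col6a2 from 13.8, 14.2 and 7.24 FPKM to 3.08, 2.46 and 4.35 FPKM, and Eln, elastin, from 11.3, 8.15 and 6.59 FPKM to 2.27, 2.07 and 3.09 FPKM. All 4 lay apart between the ages and held their calls under the 3 scalings. Sparc, the most abundant of the group, fell from 97.3, 82.7 and 58.4 FPKM to 36.3, 31.7 and 44.8 FPKM, and its call ended with median centring and without replicate 1 of 36.5 dpp. The calls of Col4a1, Col5a1, Fbn1 and Fn1 were each lost when 1 of several single libraries was left out.

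Col3a1 had also stood higher at each younger age. Its median was 432 FPKM at 8.5 dpp, 190 at 14.5 dpp, 29.1 at 24.5 dpp, 14.5 at 30.5 dpp and 13.2 at 36.5 dpp. In the step from 30.5 to 36.5 dpp 0 of the 18 matrix genes were called (1.2% of all genes were called lower), with a median log2 fold change of -0.49. The third library of 36.5 dpp had the lowest summed FPKM of the group at its age, 126 against 215 and 189, and it was also lowest for the markers of endothelium (6.70 against 14.6 and 16.6) and of peritubular smooth muscle (143 against 246 and 188). At 53.5 dpp the matrix sums were 69.1, 62.8 and 91.9. Without that library the number of genes called lower in the whole comparison was 755 in place of 549.

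Of 9 peritubular smooth muscle genes tested and 9 of endothelium, 0 were called, where 4.98% of all genes were called lower, so groups of this size would hold few calls at that share. All 9 peritubular genes and 8 of the 9 endothelial genes had log2 fold changes below 0, where 79.5% of all genes tested did. The medians were -0.48 and -0.30, and with median centring the endothelial median turned to 0.02. Acta2, smooth muscle actin, scattered from 3.34 to 35.3 FPKM at 36.5 dpp and from 4.06 to 11 FPKM at 53.5 dpp. Of 17 genes of macrophages and myeloid cells, 1 was called higher (5.88%, against 2.88% of all genes) and 0 lower. It was Aif1, at 89.8, 111 and 102 FPKM and then at 240, 209 and 191 FPKM. The macrophage genes Cd68, Cd163, Csf1r, C1qa and Adgre1 overlapped between the ages, Cd68 at 0.219 to 0.991 FPKM and 0.403 to 0.745 FPKM. From 24.5 to 30.5 dpp the median of Aif1 went from 0 to 37.9 FPKM and that of Adgre1 from 0.058 to 2.39 FPKM. Those of C1qa, Cd68 and Csf1r fell, and that of Cd163 went from 0.787 to 0.959 FPKM. The cell source of Aif1 and Adgre1 was not tested. Cd163 was called higher with median centring (0.796, 0.370 and 0.313 FPKM, then 0.955, 0.577 and 0.941 FPKM). Aif1 stood far above the other named members in level, and its call ended under quantile normalization, under rescaling to an equal sum, and without replicate 1 of either age. Of the haemoglobin genes, Hba-a1, which has near-identical copies, was called lower (66.7, 89.9 and 31.3 FPKM, then 11.5, 17.6 and 30.7 FPKM), with the lowest library of 36.5 dpp close to the highest of 53.5 dpp, and it lost its call without replicate 1 or 2 of either age.

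Leydig cells. Steroidogenesis turns cholesterol to testosterone, through Star and Cyp11a1 at the mitochondrion and then Hsd3b1, Cyp17a1 and Hsd17b3. Of 19 genes tested 3 were called lower (15.8%, against 4.98% of all genes) and 1 higher (5.26%, against 2.88%). The group median was -0.39, beside -0.30 for all genes. The balance turned with scaling: quantile normalization and median centring each gave 2 lower and 3 higher, and rescaling to an equal sum gave 6 lower and 1 higher. Hsd3b1, 3-beta-hydroxysteroid dehydrogenase, stood at 91.7, 64.6 and 53.6 FPKM at 36.5 dpp and at 21.2, 22.0 and 25.1 FPKM at 53.5 dpp (log2 fold change -1.55, standard error 0.19, limma adjusted p = 0.00386). Cyp17a1, the 17-alpha-hydroxylase, fell from 122, 71.1 and 60.2 FPKM to 22.8, 34.1 and 52.9 FPKM, where the ages nearly met, and its call ended under quantile normalization, median centring, the filter on low values removed and the fit of all 6 ages, and when 1 of 4 single libraries was left out. Srd5a1, the 5-alpha-reductase of the immature Leydig cell, fell from 5.45, 5.21 and 3.99 FPKM to 1.87, 1.79 and 1.47 FPKM.

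Other steps of the pathway were not called, and some stood lower. Fdxr, the reductase that feeds electrons to Cyp11a1, stood at 5.21, 4.84 and 5.69 FPKM at 36.5 dpp and at 1.54, 2.66 and 2.92 FPKM at 53.5 dpp (log2 fold change -0.91, limma adjusted p = 0.00841), apart between the ages at a ratio of medians just short of 2. Cyb5a and Por, which support Cyp17a1, were also apart and lower, with log2 fold changes of -0.77 and -0.42. In all, 7 of the 19 genes had every 53.5 dpp library below every one of 36.5 dpp. This was not particular to the group. It also held for 8 of 17 blood-testis barrier genes and 10 of 20 for cholesterol synthesis and uptake, but for 1 of 9 peritubular genes. Of all genes tested 79.5% had a log2 fold change below 0, and the share lying apart was not counted. Cyp11a1, the side-chain cleavage enzyme, stood at 11.7, 7.29 and 12.1 FPKM and then at 8.06, 14.5 and 16.8 FPKM. Star, the cholesterol carrier, stood at 2.16, 2.25 and 3.68 FPKM and at 2.61, 3.23 and 4.65 FPKM, and Insl3, the Leydig hormone of testis descent, at 147, 96.4 and 95.7 FPKM and at 83.1, 70.5 and 124 FPKM. All 3 overlapped between the ages. Hsd17b3, which makes testosterone from androstenedione, was higher in each 53.5 dpp testis, 0.691 to 0.856 FPKM against 0.309 to 0.510 FPKM, and was not called as deposited (limma adjusted p = 0.0504), but of the 3 scalings quantile normalization and median centring called it higher. Hsd11b1, a marker of the adult Leydig cell that interconverts glucocorticoids, rose from 3.59, 1.68 and 1.87 FPKM to 6.76, 6.31 and 12.4 FPKM (log2 fold change 1.48, standard error 0.29, limma adjusted p = 0.00927). Its median in D28 explants was 16.1 FPKM, where those of Cyp17a1 and Insl3 were 0.507 and 1.725 FPKM. A high level of Hsd11b1 was therefore not particular to the older testis in this series. The difference between Hsd11b1 and the falling enzymes was not tested.

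Genes of stem and immature Leydig cells were called lower in 5 of 12 cases (41.7%, against 4.98% of all genes) and higher in 0. Dlk1, a Notch-family ligand of the immature cell, fell from 3.59, 3.12 and 2.59 FPKM to 0.985, 0.539 and 1.12 FPKM, and Igf1, the growth factor, from 6.37, 5.56 and 4.69 FPKM to 2.56, 1.78 and 2.65 FPKM. Gli1, Pdgfrb and Thy1 were the other calls, all at levels under 2 FPKM, and for Pdgfrb the ages overlapped. Only the call of Dlk1 held under the 3 scalings, and those of Gli1, Pdgfrb and Thy1 were also lost without replicate 2 of either age. Of 9 imprinted growth genes tested, Igf2 and Meg3 were called lower beside Dlk1 (33.3%, against 4.98% of all genes). The calls of Igf2 and Meg3 were lost without replicate 1 of 36.5 dpp. Cdkn1c, a cell cycle inhibitor, was higher in each 53.5 dpp testis at a ratio of medians of 1.43.

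**Figure D4:**
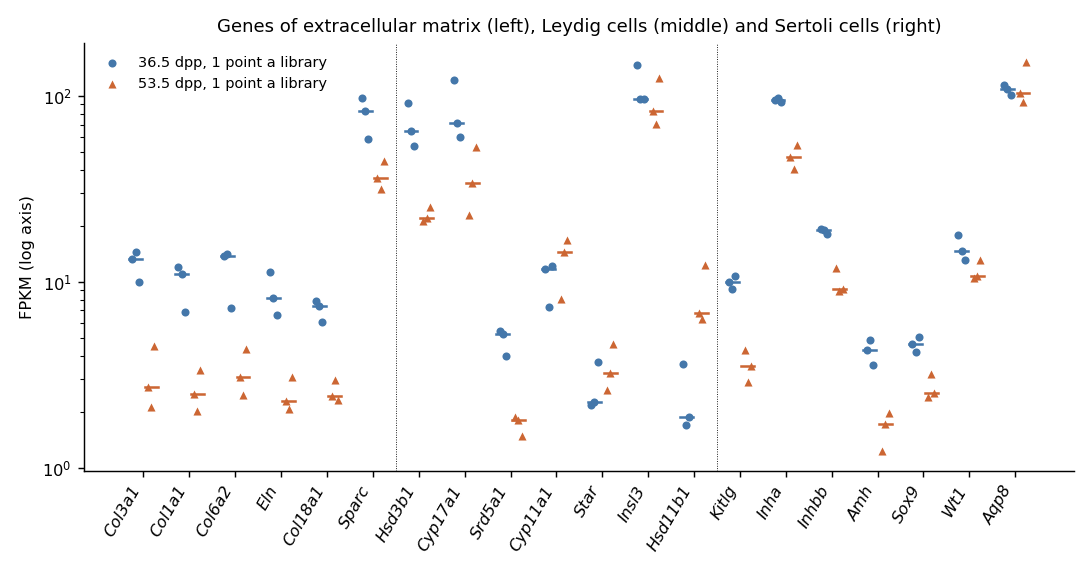
FPKM on a log axis in each of the 3 libraries of 36.5 dpp (circles) and 53.5 dpp (triangles), with a bar at the group median, for genes of the extracellular matrix (left), Leydig cells (middle) and Sertoli cells (right). The 6 matrix genes lie apart between the ages, while Cyp11a1, Star, Insl3, Wt1 and Aqp8 overlap and Hsd11b1 alone in this plot is higher at 53.5 dpp with no overlap.

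Sertoli cells. Of 27 genes tested, 5 were called lower (18.5%, against 4.98% of all genes) and 0 higher (2.88% of all genes). The group median log2 fold change was -0.42, which was -0.17 under quantile normalization and -0.09 with median centring. Kitlg, the Kit ligand that supports differentiating spermatogonia, fell from 9.96, 9.15 and 10.8 FPKM to 4.31, 2.89 and 3.52 FPKM and was the only call to hold under the 3 scalings. Inha, the inhibin alpha subunit, fell from 95.1, 97.7 and 92 FPKM to 46.9, 40.4 and 54.4 FPKM, a call lost without replicate 2 of either age. Inhbb, a beta subunit, fell from 19.3, 19 and 18 FPKM to 11.8, 8.89 and 9.08 FPKM, lost without replicate 2 or 3 of 53.5 dpp. Amh, the hormone of the immature Sertoli cell, fell from 4.29, 4.88 and 3.55 FPKM to 1.22, 1.72 and 1.96 FPKM, having stood at 85.7 FPKM at 8.5 dpp. Il1a was the other call, lost without replicate 3 of 36.5 dpp. Ctsl, the protease cathepsin L, went the other way, from 37.1, 34.4 and 27.5 FPKM to 45.3, 64.6 and 113 FPKM, apart between the ages at a ratio of medians of 1.88. It was called higher under quantile normalization and median centring, where the group had 1 call in each direction. Sox9 and Gata4, the identity factors, had log2 fold changes of -0.61 and -0.54 with ratios of medians under 2, and Wt1, Fshr and Aqp8 overlapped between the ages. Fabp9, kept in this group, is better known from germ cells, and stood at 1459 to 1670 FPKM and 1494 to 1706 FPKM.

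Among the largest falls of genes of at least 5 FPKM were Rpl13a, U2af1l4, Snrpd1, Hnrnph3, Dnajc2, Msi1, Vapb, Psmg4, Ccnd2, Nosip, Hspe1, Col3a1, Rn45s and Hnrnpdl. Several rest on values listed at 0 in some libraries of 53.5 dpp and not in others. Rpl13a, a protein of the large ribosomal subunit, stood at 32.9, 32.5 and 37.6 FPKM in the younger testes, while the older ones list 0, 25.1 and 0 FPKM. Vapb, Msi1, Snrpd1 and Hnrnph3 show the same alternation, and of the 549 genes called lower, 26 are listed at 0 in some but not all 53.5 dpp libraries. With every gene listed at 0 in a library left out, a setting chosen after seeing the data, the calls were 314 higher and 550 lower. Ribosomal protein genes have many pseudogene copies, so their values are uncertain, and the 5 calls with this alternation were each lost when 1 of at least 4 single libraries was left out.

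Falls without zeros included Rn45s, the precursor of ribosomal RNA, at 52.9, 76.2 and 51.2 FPKM and then at 16.8, 18.1 and 19.8 FPKM (log2 fold change -1.65, standard error 0.16, limma adjusted p = 0.00218). The libraries were made from polyadenylated RNA, from which most ribosomal RNA is removed. Nosip, a ubiquitin ligase, fell from 13.5, 15.5 and 14.7 FPKM to 7.34, 2.24 and 2.39 FPKM, and Hnrnpdl, an RNA-binding protein, from 32.1, 16.2 and 19.8 FPKM to 8.19, 8.70 and 3.33 FPKM. Over the gene groups, the largest changes and the most abundant genes together, 40 were called higher and 51 lower. Of these, 36 and 16 held their call under the 3 scalings, and none of them changed sign in any.

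Apart from Tnp1, Prm1, Odf1, Tnp2, Oaz3 and Smcp, the 10 most abundant genes at 53.5 dpp were Hspb9, Pebp1, Gsg1 and Fam229b. Gsg1, a germ cell gene, rose from 610, 607 and 469 FPKM to 2485, 2248 and 1764 FPKM. Hspb9, a testis small heat shock protein, stood at 1631, 2181 and 1834 FPKM and at 2608, 2553 and 3993 FPKM, and Pebp1, a phosphatidylethanolamine-binding protein, at 1801, 2020 and 2001 FPKM and at 2402, 2308 and 2777 FPKM. These were apart between the ages but not called, and under quantile normalization the log2 fold changes of Hspb9, Pebp1 and Fam229b turned from 0.68, 0.36 and 0.27 to -0.40, -0.998 and -0.53.

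At the other ages, the genes called higher were mostly late genes and the genes called lower mostly early ones. The order of 36.5 and 53.5 dpp follows from the call itself, and the levels below are described without a test. The median level of the 318 genes called higher was 0.433 FPKM at 8.5 dpp, 0.672 at 14.5 dpp, 0.433 at 24.5 dpp, 2.38 at 30.5 dpp, 11.6 at 36.5 dpp and 35.1 at 53.5 dpp. Of these genes 119 (37.4%) were under 0.5 FPKM at 8.5, 14.5 and 24.5 dpp, against 6.31% of all genes tested. Of the 318, 200 (62.9%) rose at each age from 24.5 dpp on, against 11.1%. The last of these rises is fixed by the call, so part of that gap is built in. In explants at D28, matched by age to 36.5 dpp, their median was 0.508 FPKM. Of the 119, 109 were under 0.5 FPKM there too. Among all genes tested, 696 were under 0.5 FPKM at 8.5, 14.5 and 24.5 dpp, and 641 of the 696 were so in D28. Staying low in D28 was therefore not particular to the genes called higher.

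Not all genes called higher were silent in the young testis. Of the 318, 150 (47.2%) stood at 0.5 FPKM or more at 8.5 dpp, against 86.45% of all genes tested. For 24 of the 318 (7.55%, against 25.6%) the highest level of all ages was at 8.5 dpp. In 43 of the 318 the median was lowest at 30.5 dpp and highest at 53.5 dpp, as in Azin2, and 96 of all 11033 genes did so. A higher level at 53.5 than at 36.5 dpp is fixed by the call. The counts of 24 and 43 therefore differ from all genes partly through the selection. Of the 549 genes called lower, 509 (92.7%) were at 0.5 FPKM or more at 8.5 dpp, against 86.45% of all genes tested. For 251 of the 549 (45.7%, against 25.6%) the highest level was there. At each age from 14.5 dpp on, 352 (64.1%, against 33.8% of all genes tested) fell. The last of these falls, and a peak before 53.5 dpp, are fixed by the call, so part of both gaps is built in. The median of the 549 was 10.8 FPKM at 8.5 dpp, 2.28 at 36.5 dpp and 0.834 at 53.5 dpp, and 10.1 FPKM in D28 explants. All genes tested had medians of 10.85, 8.15 and 6.24 FPKM at these ages and 10.97 FPKM in D28. The levels at 8.5 dpp and in D28 were therefore near those of all genes.

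**Figure D5:**
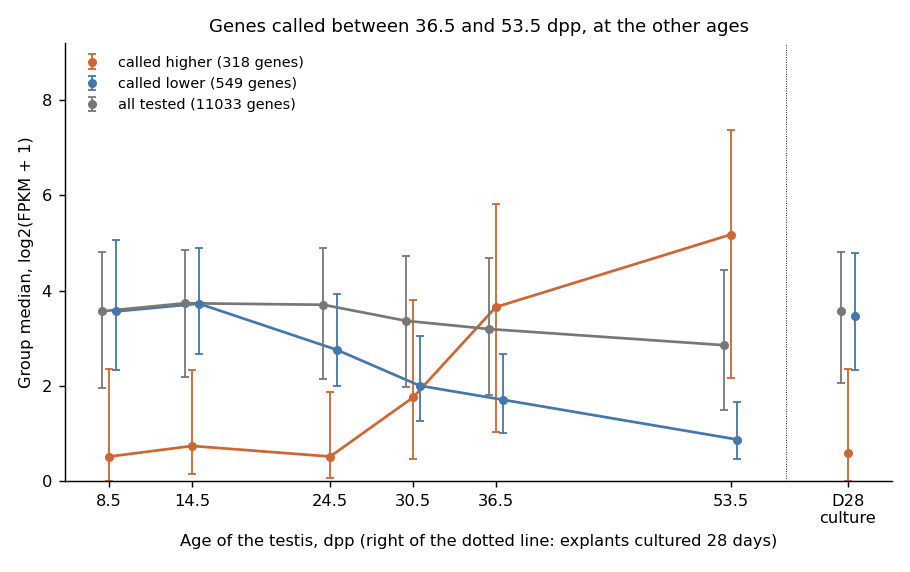
Median (points) and quartiles (bars) over genes of the group median level, log2(FPKM + 1), at each age and in D28 explants, for the 318 genes called higher, the 549 called lower and all 11033 tested. Genes called higher leave the bottom of the scale from 30.5 dpp on and stay low in D28 explants, while genes called lower decline from 14.5 dpp.

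The step before gives a scale for this interval. From 30.5 to 36.5 dpp, 711 genes were called higher (6.33% of 11227 tested) and 135 lower (1.2%), and from 36.5 to 53.5 dpp 318 higher and 549 lower. In sperm chromatin 10 of 13 genes were called higher in the first step and 6 of 13 in the second, in tail sheaths 12 and 10 of 21, and in the acrosome 13 and 1 of 22. For Leydig steroidogenesis 2 of 19 were called lower in the first step and 3 in the second, and for Sertoli cells 0 and 5 of 27. The 36.5 dpp testes stand in both steps, so a value too low or too high in them moves the 2 in opposite directions, and the difference between the steps was not tested.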

How the data were processed

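RNA was sequenced from whole testes (polyadenylated RNA, stranded libraries, short single reads). The deposited table holds FPKM values made by the authors, who aligned reads to rn6 with STAR 2.5.2a after bcl2fastq 2.17.1.14 and quantified genes with StringTie and Ballgown. FPKM hides read depth, so no counting interval can be given, and one abundant gene's rise lowers the values of the others. The file holds 17322 genes, 17172 of them found by identifier in the RefSeq table.

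Groups were taken from the sample labels. Genes whose median reached 0.5 FPKM at 36.5 or 53.5 dpp were tested with limma 3.58.1 (R 4.3.3) on log2(FPKM + 1), using the 6 libraries alone, with Benjamini-Hochberg adjustment. Fold changes on this scale understate those of genes near or under 1 FPKM. Because each age has 3 testes, p-values measure the spread between these testes. The test was checked on simulated shifts of 200 genes: of those shifted by 2 on the log2 scale 193 were called on average, of those shifted by 1 it was 117, and at most 5.15 other genes. The shifted genes were drawn only from those above a set mean level. The check therefore does not cover the low levels at which most genes called lower lie (median 2.28 FPKM at 36.5 dpp). Its noise was normal and independent between genes, with no shift common to a library. It also did not model values listed at 0 in single libraries. It therefore cannot speak for the calls that depend on scaling or on such zeros.

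Genes named are the members of 23 groups (425 of 478 entries matched 1 gene), the 15 largest rises and falls among called genes of at least 5 FPKM with no overlap between ages, and the 10 most abundant genes at 53.5 dpp. Results of some genes that meet this rule are not reported here. The comparison and groups were chosen with earlier results of these data known. Alternatives were other pseudocounts and filters, 3 scalings, a robust prior, a fit of all 6 ages, a replicate block, other ratio limits, each library left out, and genes listed at 0 left out. Promoters came from RefSeq (GRCr8). Python 3.11.15, numpy 2.4.6, pandas 2.3.3 and matplotlib 3.10.9 were used.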

Additional observations from a re-analysis of the deposited data

How the results depend on the processing

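The split of 318 higher and 549 lower genes depended most on scaling. Rescaling to an equal summed FPKM gave 1621 calls (1328 lower), quantile normalization 553 (76 lower), and median centring 732 higher and 48 lower. With no limit on the ratio 5124 genes passed (742 higher, 4382 lower), and with a ratio of at least 4, 126 did (65 and 61). Leaving out single libraries gave 322 to 755 genes called lower, 322 without 36.5 dpp replicate 1 and 755 without 36.5 dpp replicate 3. The cause of these differences was not tested. Other pseudocounts and filters, the robust prior, the fit of 6 ages and leaving out genes listed at 0 kept both counts within 1.5 times.

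Relative to all genes, the median log2 fold change of sperm chromatin was 1.31 (0.74 with quantile normalization), that of tail sheaths 1.23 (1.31 with a pseudocount of 0.1, 1.13 with no filter, 0.73 with quantile normalization), and that of the acrosome 0.45 (0.14 with quantile normalization). For extracellular matrix it was -0.56 (-0.80 with a pseudocount of 0.1, -0.75 with rescaling to an equal sum, and from -0.77 to -0.46 with single libraries left out, the first without 36.5 dpp replicate 3). For Leydig steroidogenesis it was -0.10, turned to 0.0829 with no filter, and ran from -0.20 to 0.0735 with single libraries left out, the second without 36.5 dpp replicate 1. Under quantile normalization the uncalled changes of Fam229b, Hspb9 and Pebp1 turned to -0.53, -0.40 and -0.998.

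With the replicate block, 310 genes were called higher and 425 lower. Deviations of same-numbered libraries correlated at -0.087, 0.010 and 0.008 across genes, and those of unlike-numbered ones from -0.111 to 0.124. These values cannot settle whether same-numbered testes share a litter or batch, and the main fit treated the testes as unpaired.

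Read depth is hidden by FPKM, genes under about 1 FPKM rest on few reads, and whether values listed at 0 in single libraries are failed estimates was not tested.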

Other observations

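The gene families below were chosen after their values were seen. Their counts stand beside 2.88% of all genes tested called higher and 4.98% called lower. All 4 Iqcf genes in the file (Iqcf1, Iqcf3, Iqcf5 and Iqcf6), which encode proteins with calmodulin-binding IQ motifs, were called higher at 53.5 dpp, with log2 fold changes from 1.25 to 1.53. Of 6 Garin genes, 4 were called higher (Garin1a, Garin2, Garin3 and Garin4) and 0 lower. Among 22 Spata genes tested, 4 were called higher and 0 lower, and their log2 fold changes ran from -0.60 to 2.56. Of 34 olfactory receptor genes that passed the filter, of 1189 in the file, 7 were called higher and 0 lower, with log2 fold changes from -0.80 to 1.23, and receptor paralogs share sequence, so their values are uncertain.

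Of 39 genes of J-domain chaperones 3 were called higher (Dnaja4, Dnajb4 and Dnajb8) and 1 lower (Dnajc2). Of 48 ribosomal protein genes 1 was called higher and 4 lower, and 7 are listed at 0 in at least 1 library of 53.5 dpp. In the whole comparison, 15 genes called higher are listed at 0 in at least 1 library of 36.5 dpp.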
